A study of Mus musculus with 6 samples.

Results

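The ligands and receptors of the 4 classical axon guidance systems were followed in PA6 cells, a mouse bone marrow stromal line, after 3 h of stimulation. Members were taken by their symbol on the array: the class 3 to 7 semaphorins with the plexins and neuropilins, the A and B ephrins with the Eph receptors, SLIT1 to SLIT3 with ROBO1 to ROBO4, and the netrins NTN1 to NTN5 with the UNC5 receptors. The rule found 62 genes with 153 probes among the 30854 gene names and 45281 probes of the array. A further 2 genes of these families were left out of the rule and are not analysed here. The rule itself uses symbols and no measured value.

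Confluent PA6 monolayers were kept in serum-free medium for 3 h. The medium held no growth factor (-GFs), FGF2 at 20 ng/ml or BMP4 at 10 ng/ml. All 3 groups thus shared the line and the serum-free medium. Each group had 2 biological replicates with 1 array each, and each replicate supplied 1 well to every group, so that replicate numbers pair the arrays. PA6 is a single established line, and the cells were cultured here without the embryonic stem cells that the study placed on them in other experiments. The comparison asks which signals the stroma itself changes in its first hours with either factor.

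Axon guidance molecules were named for steering growing nerve fibres, but they act as short-range position cues in many tissues, vessels and bone included. Semaphorins signal through plexins, in the case of the secreted forms with neuropilins as co-receptors. Ephrins stay on the cell surface and signal to Eph receptor tyrosine kinases on the neighbouring cell, with a return signal into the ephrin-bearing cell. Slits are secreted ligands of Robo receptors, and netrins are laminin-related secreted proteins that bind DCC and UNC5 receptors.

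Median raw intensity ranged from 153.4 to 168.1 between the 6 arrays, and 15509 to 16459 probes per array had a detection p under 0.05. To be retained, a probe had to be detected on each of the 2 arrays of some group, and a gene was represented by its brightest retained probe. All 8 stromal markers were detected on all 6 arrays, COL1A1, THY1 and VIM among them. Of the 5 neuronal markers on the array none was retained, and of the 6 endothelial markers TEK and KDR were, while CDH5, PECAM1, TIE1 and ICAM2 were detected on no array. Of the 5 haematopoietic markers only CSF1R was retained, and of the 3 pluripotency markers only POU5F1. None of these retained marker genes passed the adjusted p with FGF2 or BMP4. Of the 8 stromal markers 7 were lower with FGF2 by their estimate (median log2 fold change -0.25), beside 52.5% of all tested genes. The median of the members had the same direction. With the replicate block COL1A1 (-0.37), PDGFRA (-0.39) and PDGFRB (0.37) passed at an adjusted p of 0.0974, 0.0494 and 0.0560 (limma). These are 3 of 8, beside 37.7% of all tested genes, and PDGFRB was higher. Whether a shift of the stromal markers has a part in the members' values was not tested. Values are from bulk RNA, in which fewer expressing cells and less RNA per cell cannot be told apart.

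PA6 cells expressed members of every family. Of the 62 genes, 25 had a retained probe and were tested, among 11872 tested genes in all, and 37 were not. The tested genes comprised 13 of 30 ligands and 12 of 32 receptors. Among the semaphorins SEMA3A, SEMA3B, SEMA3F, SEMA4A, SEMA4B, SEMA5A and SEMA7A were tested, 7 of 19. The plexins PLXNA2, PLXNB2 and PLXND1 were tested, 3 of 9, together with NRP1 but not NRP2. The ephrins EFNA1, EFNA4 and EFNA5 made 3 of 7, and the receptors EPHA4, EPHB2, EPHB3, EPHB4 and EPHB6 made 5 of 14. SLIT2, SLIT3, ROBO1, ROBO2, the netrin NTN4 and the netrin receptor UNC5C completed the set. SEMA7A was retained only through the FGF2 arrays, and EPHB6 and ROBO2 only through the -GFs arrays, so the make-up of the tested set is itself not independent of the treatments.

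Of the 37 untested genes, 9 had a probe detected on 1 or 2 arrays: SEMA3E, SEMA4F, SEMA6B, EFNB3, EPHA1, EPHA3, EPHA6, EPHA8 and ROBO4. No group had both of its arrays among these detections. The other untested members were detected on no array. They were SEMA3C, SEMA3G, SEMA4C, SEMA4D, SEMA4G, SEMA5B, SEMA6A, SEMA6C, SEMA6D, PLXNA1, PLXNA3, PLXNA4, PLXNB1, PLXNB3, PLXNC1, NRP2, EFNA2, EFNA3, EFNB2, EPHA2, EPHA5, EPHA7, EPHA10, EPHB1, SLIT1, ROBO3, UNC5A and UNC5D. Absence of a detected probe does not show absence of the transcript, since a probe can fail to hybridise.

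After 3 h of FGF2, 2 semaphorins rose and 1 ephrin fell past the threshold of the study's methods, an absolute log2 fold change over 1 with an adjusted p under 0.1 (limma, Benjamini-Hochberg over all genes tested). SEMA7A, undetected in -GFs, rose at least 2.24-fold and SEMA4B 2.02-fold, while EFNA4 fell to 0.472 of its -GFs level. These 3 of 25 tested members stand beside a background of 3.53% of all tested genes called either way, 2.28% higher and 1.25% lower. With the adjusted p alone, the plexin PLXNA2 joined the genes that rose, and EFNA1 and the receptor EPHB4 those that fell, which made 6 of 25 beside 11.8% of all tested genes. With the replicate as a block in the fit, 11 members passed the adjusted p, beside 37.7% of all tested genes. The 5 that were added, EPHB3, EPHB6, NTN4, PLXNB2 and PLXND1, were all lower with FGF2.

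The direction was not shared by the whole set. Of the 25 tested members, 7 were higher and 18 lower with FGF2 by their estimate, with a median log2 fold change of -0.15, where 47.5% of all tested genes were higher and their median was -0.02. The median size of the change regardless of sign was 0.27 on the log2 scale for the members and 0.24 for all tested genes. Among the ligands 5 were higher and 8 lower, and among the receptors 2 were higher and 10 lower, with medians of -0.07 and -0.23. These are counts of estimates, most of which did not pass the test.

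**Figure D1:**
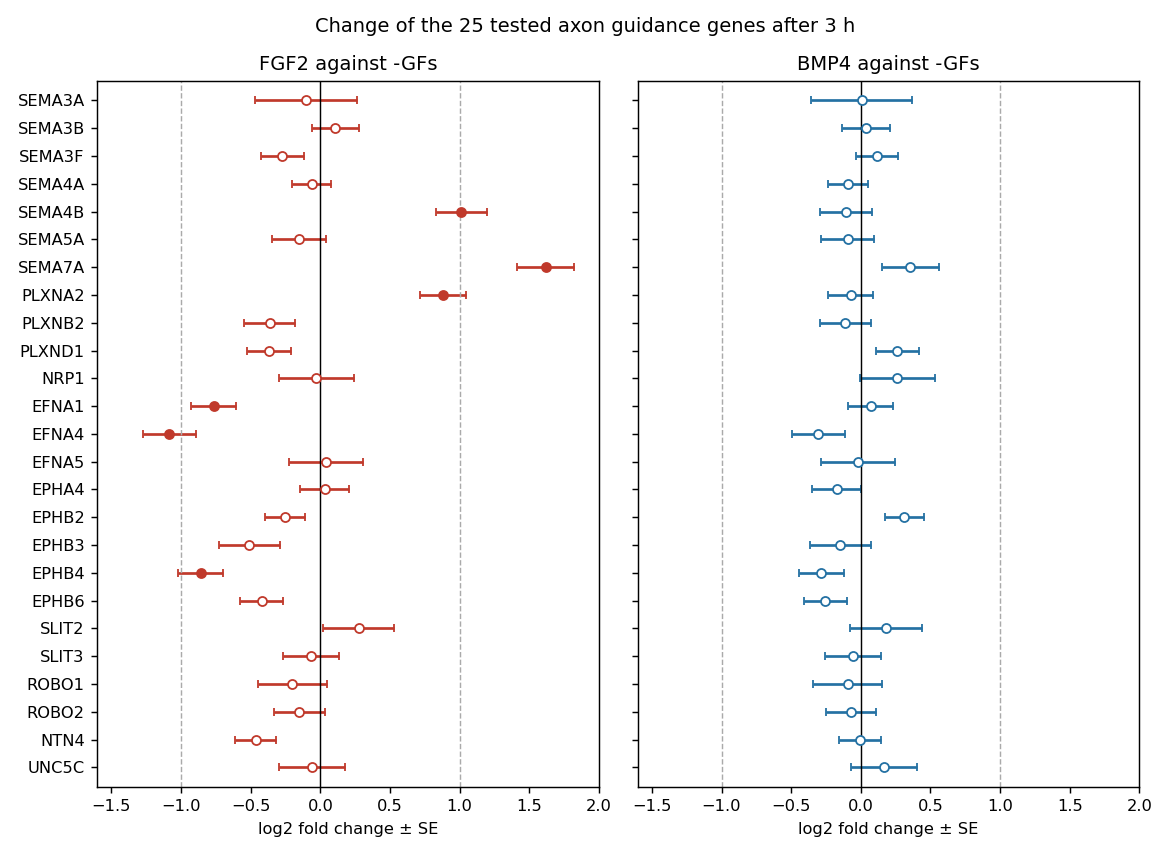
Log2 fold change after 3 h of the 25 tested axon guidance genes (rows, by family) for FGF2 (left) and BMP4 (right) against -GFs. Points are limma estimates from 2 arrays per group, bars are 1 standard error, filled points have an adjusted p under 0.1 and dashed lines mark a log2 fold change of 1 in either direction. Filled points appear for 6 genes with FGF2 and for none with BMP4, and the points of SEMA7A, NTN4 (FGF2) and EPHB6 rest on a group in which the probe was undetected.

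The sequences just upstream of the 6 genes whose change with FGF2 passed the adjusted p are given because these genes moved within the same 3 h, and to show whether letters bound by factors that act early after growth factor stimulation occur there. Each is the 250 bases before the annotated start of transcription, 5′ to 3′ on the strand of the gene, from the RefSeq promoter windows of the GRCm38.p6 build. Where RefSeq lists several starts (SEMA4B and EFNA1), the most upstream is shown. Capitals mark matches to GCGNGGGCG, the letters of an EGR site. The positions are chr9:57939862-57940111 on the plus strand for SEMA7A, chr7:80186620-80186869 on the plus strand for SEMA4B, chr1:194619579-194619828 on the plus strand for PLXNA2, chr3:89280952-89281201 on the minus strand for EFNA1, chr3:89338029-89338278 on the minus strand for EFNA4 and chr5:137349859-137350108 on the plus strand for EPHB4.
SEMA7A: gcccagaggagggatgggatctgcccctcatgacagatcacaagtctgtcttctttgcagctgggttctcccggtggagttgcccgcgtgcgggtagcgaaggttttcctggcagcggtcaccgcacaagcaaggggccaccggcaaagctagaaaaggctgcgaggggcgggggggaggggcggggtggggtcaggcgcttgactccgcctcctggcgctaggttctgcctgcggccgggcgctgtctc
SEMA4B: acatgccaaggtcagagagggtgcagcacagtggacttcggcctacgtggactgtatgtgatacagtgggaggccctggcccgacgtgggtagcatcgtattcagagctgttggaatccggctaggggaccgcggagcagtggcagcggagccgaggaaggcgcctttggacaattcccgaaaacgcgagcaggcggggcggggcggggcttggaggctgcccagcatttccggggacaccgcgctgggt
PLXNA2: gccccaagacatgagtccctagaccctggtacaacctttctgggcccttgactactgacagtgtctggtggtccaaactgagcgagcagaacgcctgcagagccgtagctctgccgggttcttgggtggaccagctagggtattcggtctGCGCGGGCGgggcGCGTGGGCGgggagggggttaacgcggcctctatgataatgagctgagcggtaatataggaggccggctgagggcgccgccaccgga
EFNA1: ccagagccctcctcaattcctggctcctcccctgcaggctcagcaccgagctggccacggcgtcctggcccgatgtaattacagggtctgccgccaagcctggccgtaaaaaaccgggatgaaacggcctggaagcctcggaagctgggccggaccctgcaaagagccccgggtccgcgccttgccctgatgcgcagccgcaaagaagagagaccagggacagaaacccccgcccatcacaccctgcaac
EFNA4: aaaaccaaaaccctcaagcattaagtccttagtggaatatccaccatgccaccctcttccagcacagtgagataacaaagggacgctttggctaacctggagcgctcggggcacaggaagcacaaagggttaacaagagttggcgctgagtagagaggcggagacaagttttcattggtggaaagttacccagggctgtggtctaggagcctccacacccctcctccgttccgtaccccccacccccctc
EPHB4: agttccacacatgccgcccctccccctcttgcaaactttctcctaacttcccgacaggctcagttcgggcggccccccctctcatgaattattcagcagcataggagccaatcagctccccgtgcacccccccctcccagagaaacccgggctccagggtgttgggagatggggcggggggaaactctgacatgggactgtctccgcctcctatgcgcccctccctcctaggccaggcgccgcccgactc

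Only the PLXNA2 sequence holds a match among these 6, and it holds 2, beginning 100 and 87 bases before the start. The second listed start of EFNA1 has another, 59 bases upstream. Across the 31 windows of the 23 tested members that matched a RefSeq entry, 7 windows held GCGNGGGCG on either strand (22.6%), those of EFNA1, EFNA5, PLXNA2, PLXNB2, SEMA5A, SLIT2 and SLIT3. The share was 8.87% of the 7938 windows of all tested genes and 4.70% of all 32851 windows of this length. The median GC content was 64.8% in the windows of the members and 60.0% in those of all tested genes, and its part in the difference was not tested. The letters of an AP-1 site (TGANTCA), an ETS site (CCGGAAGT) and a cyclic AMP response element (TGACGTCA) occurred in 0 of the 31 windows, against 4.65%, 5.95% and 2.52% of the windows of all tested genes. These are letter matches on both strands and were not measured as binding.

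SEMA7A, a semaphorin held in the membrane by a lipid anchor that binds integrins and plexin C1, had the largest change of the set. Before normalization it read 132.6 and 148.0 (raw intensity) in -GFs, 383.6 and 456.1 with FGF2, and 150.3 and 211.8 with BMP4. After normalization the log2 levels were 7.02 and 7.26 in -GFs, 8.59 and 8.92 with FGF2, and 7.31 and 7.68 with BMP4. Both FGF2 arrays lay above all the others, and the -GFs arrays and the first BMP4 array were undetected, so that their levels have no order. The probe was undetected on both -GFs arrays, so its -GFs level is only a bound, and FGF2 raised it at least 2.24-fold. The fitted log2 fold change of 1.62 had a standard error of 0.20 and an adjusted p of 0.0113 (limma), and the rise was 1.57 in the first replicate and 1.66 in the second. All of these use the undetected -GFs readings, and the probe was retained only through the FGF2 arrays. Without FGF2 replicate 2 the adjusted p was 0.113. The 2 other SEMA7A probes were detected on no array.

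SEMA4B, a transmembrane semaphorin, was clearly present without stimulation and rose with FGF2. Its log2 levels were 10.27 and 10.66 in -GFs, 11.43 and 11.52 with FGF2, and 10.46 and 10.26 with BMP4. The FGF2 arrays stood above the other 4, and the -GFs and BMP4 levels overlapped. The log2 fold change was 1.01 (SE 0.18, limma adjusted p = 0.0290), just inside the fold threshold. It was 1.17 in the first pair and 0.85 in the second. With the arrays scaled to a common median it was 0.93, and without FGF2 replicate 1 or 2 or without -GFs replicate 1 the gene was no longer called, at 1.05, 0.97 and 0.81.

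The other 5 tested semaphorins did not pass the test with FGF2. They are the secreted SEMA3A, SEMA3B and SEMA3F, which signal through neuropilins and plexins, and the transmembrane SEMA4A and SEMA5A. Their log2 fold changes lay between -0.27 (SEMA3F) and 0.11 (SEMA3B). SEMA3A, the classic growth cone repellent, had the widest spread of them, with log2 levels of 9.67 and 8.65 on the -GFs arrays, 9.13 and 8.98 with FGF2 and 9.51 and 8.82 with BMP4. The distance between its -GFs arrays exceeded every difference between its group means.

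Of the 4 tested semaphorin receptors PLXNA2 alone rose by the adjusted p. PLXNA2 is a plexin that pairs with neuropilins for secreted semaphorins. Its log2 levels were 9.39 and 9.60 in -GFs, 10.50 and 10.25 with FGF2, and 9.44 and 9.41 with BMP4. Both FGF2 arrays were above the other 4, and the BMP4 arrays fell inside the -GFs range. The log2 fold change of 0.88 (SE 0.16, limma adjusted p = 0.0306) was just outside the fold threshold, with 1.11 in the first pair and 0.65 in the second.

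PLXNB2, a receptor of transmembrane semaphorins, and PLXND1, the receptor of SEMA3E, had log2 fold changes of -0.36 and -0.37 with FGF2. Their adjusted p was 0.286 and 0.219 (limma), and 0.0754 and 0.0618 with the replicate block. NRP1, the co-receptor of SEMA3A and of VEGF, changed by -0.03. A second PLXND1 probe gave -0.10 and a second NRP1 probe 0.01.

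Of the 3 tested ephrins, 2 fell with FGF2 by the adjusted p. EFNA4, an ephrin with a lipid anchor, had log2 levels of 8.95 and 9.07 in -GFs, 8.13 and 7.72 with FGF2, and 8.59 and 8.82 with BMP4. The FGF2 arrays were the lowest, and the BMP4 arrays lay between them and the -GFs arrays, overlapping neither. Its log2 fold change with FGF2 was -1.08 (SE 0.19, limma adjusted p = 0.0263), with -0.82 in the first pair and -1.35 in the second. The second EFNA4 probe, undetected on FGF2 replicate 2, gave -1.03. Without -GFs replicate 2 the adjusted p was 0.101, and without FGF2 replicate 2 it was 0.188 with a log2 fold change of -0.88.

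EFNA1, the ephrin induced by inflammatory cytokines in endothelium, had log2 levels of 8.37 and 8.23 in -GFs, 7.62 and 7.45 with FGF2, and 8.26 and 8.48 with BMP4. The FGF2 arrays lay below the other 4, of which the -GFs and BMP4 arrays overlapped. The log2 fold change was -0.77 (SE 0.16, limma adjusted p = 0.0422), and -0.75 and -0.78 in the single pairs. The probe was undetected on FGF2 replicate 2, so its level there is only a bound. EFNA1 and EFNA4 are neighbours on chromosome 3 in the RefSeq annotation of GRCm38.p6, with 1 protein-coding gene between them, EFNA3, whose probes were detected on no array. EFNA5, the remaining tested ephrin, changed by 0.04.

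EPHB4, the receptor tyrosine kinase best known for marking veins, fell with FGF2 on both arrays. Its log2 levels were 11.42 and 11.55 in -GFs, 10.61 and 10.65 with FGF2, and 11.35 and 11.06 with BMP4. The FGF2 arrays were the lowest and the BMP4 arrays lay below both -GFs arrays. The log2 fold change was -0.86 (SE 0.16, limma adjusted p = 0.0321), -0.81 in the first pair and -0.91 in the second. Of its 2 other probes, the brighter gave -0.75 and the dimmer -0.20. EFNB2, its usual ligand, was detected on no array.

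EPHB3 was less even. Its log2 levels were 7.91 and 8.44 in -GFs, 7.80 and 7.53 with FGF2, and 7.91 and 8.15 with BMP4. The FGF2 arrays were again lowest, but the first -GFs array was close to them. FGF2 replicate 2 did not detect the probe, so the level there is only a bound. The log2 fold change of -0.51 had an adjusted p of 0.225 (limma) and of 0.0276 with the replicate block, and it was -0.11 in the first pair and -0.91 in the second. EPHB6, a family member whose kinase domain is inactive, was undetected on both FGF2 and both BMP4 arrays, so that its level there is only a bound, at least 1.12-fold below -GFs with either factor. Its adjusted p was 0.162 with FGF2 and 0.0336 with the block. EPHB2 changed by -0.25 and EPHA4, which binds both ephrin classes, by 0.03, and neither passed the test.

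**Figure D2:**
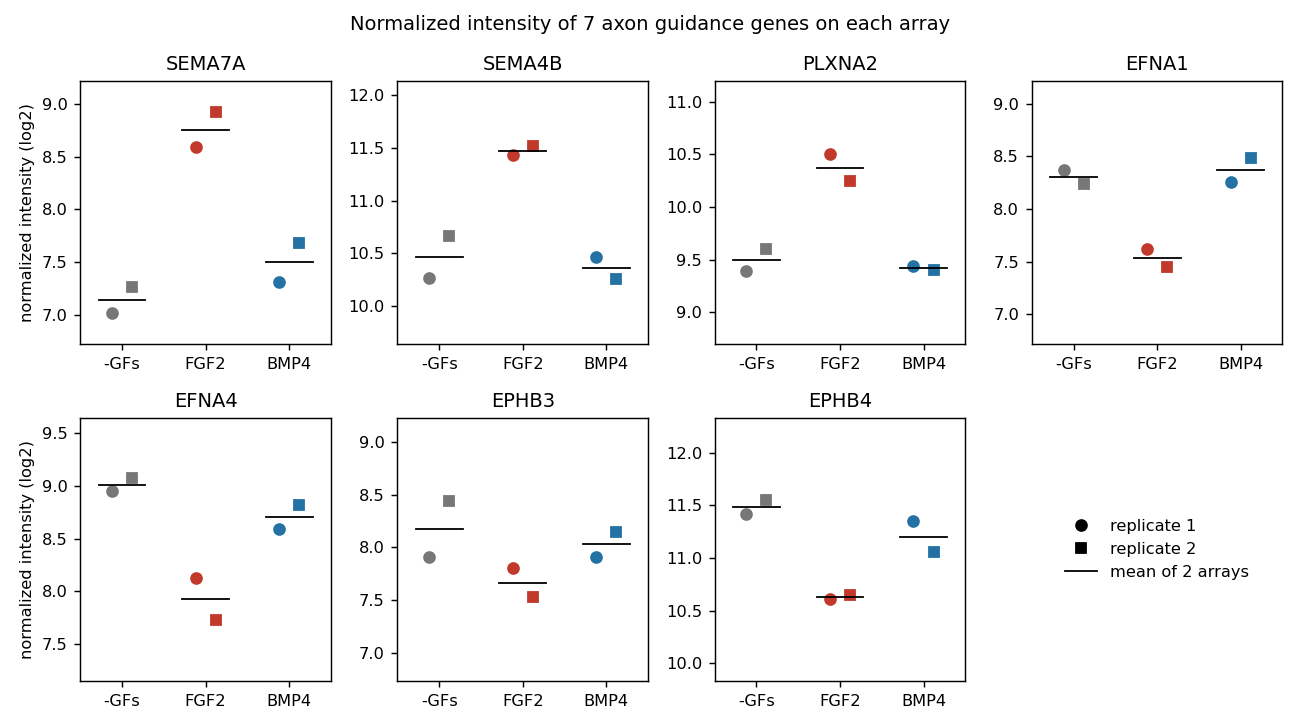
Normalized log2 intensity on each of the 6 arrays for the 7 axon guidance genes with an absolute log2 fold change over 0.5 against -GFs. Circles are replicate 1, squares replicate 2, lines the mean of the 2 arrays of a group, and every panel spans 2.5 log2 units on its own scale. The FGF2 arrays lie above both other groups for SEMA7A, SEMA4B and PLXNA2 and below them for EFNA1, EFNA4, EPHB3 and EPHB4. For EPHB3 the gap is narrow, from 7.80 with FGF2 to 7.91 in -GFs. The genes were picked by the size of their change, and the share of all tested genes with such a separation was not analysed here. Undetected were both -GFs points and the first BMP4 point of SEMA7A, and the second FGF2 points of EFNA1 and EPHB3.

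Slits and Robos showed no called change. The brightest SLIT2 probe had log2 levels of 11.49 and 11.26 in -GFs, 11.59 and 11.70 with FGF2, and 11.93 and 11.17 with BMP4. The BMP4 arrays were the highest and the lowest of all, and both FGF2 arrays lay above both -GFs arrays. The log2 fold change with FGF2 was 0.27 (limma adjusted p = 0.579). SLIT3 changed by -0.07, and the receptors ROBO1 and ROBO2 by -0.20 and -0.15.

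The probes of SLIT2 covered the widest range of the genes with several retained probes. Of its 5 retained probes, a dimmer one had log2 levels of 7.89 and 7.58 in -GFs and 8.86 and 8.59 with FGF2, and another had 7.80 and 7.33 in -GFs and 8.45 and 8.41 with FGF2. On both of these, as on the brightest probe, the FGF2 arrays stood above the -GFs arrays. Neither of these 2 probes was detected on -GFs replicate 2, so the level there is only a bound. When every retained probe was fitted by itself, their log2 fold changes were 0.99 (SE 0.25) and 0.86 (SE 0.20), with limma adjusted p of 0.0739 and 0.0610 over 16111 probes. The remaining probes gave 0.48 and 0.15. The probe at 0.48 was undetected on -GFs replicate 2. The probe at 0.15 was detected on the FGF2 arrays only and was retained through them, so its -GFs level is only a bound. All 5 estimates were above 0, but all except that of the brightest probe use an undetected -GFs reading. Of the 5, 2 passed the adjusted p but not the fold threshold. The position of each probe in the transcript was not analysed here.

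In the same fit of single probes, 10 of the 40 retained member probes passed the adjusted p with FGF2, beside 10.5% of all retained probes. They belonged to EFNA1, EFNA4 (both probes), EPHB4 (both brighter probes), PLXNA2, SEMA4B, SEMA7A and SLIT2 (both named above). The estimates of a gene's probes differed in sign for SEMA3B (0.11 and -0.39), EPHB2 (-0.25, 0.15 and 0.02) and NRP1 (-0.03 and 0.01). The SEMA3B probe at -0.39 was undetected on FGF2 replicate 1, and the EPHB2 probe at 0.15 on -GFs replicate 1. The EPHB2 probe at 0.02 was undetected on all -GFs and FGF2 arrays, so its levels there have no order. With the replicate block, 18 of the 40 member probes passed, beside 36.5% of all retained probes. Among those added were the dimmer SEMA3B probe and the SLIT2 probe at 0.48 (limma adjusted p = 0.0215).

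**Figure D3:**
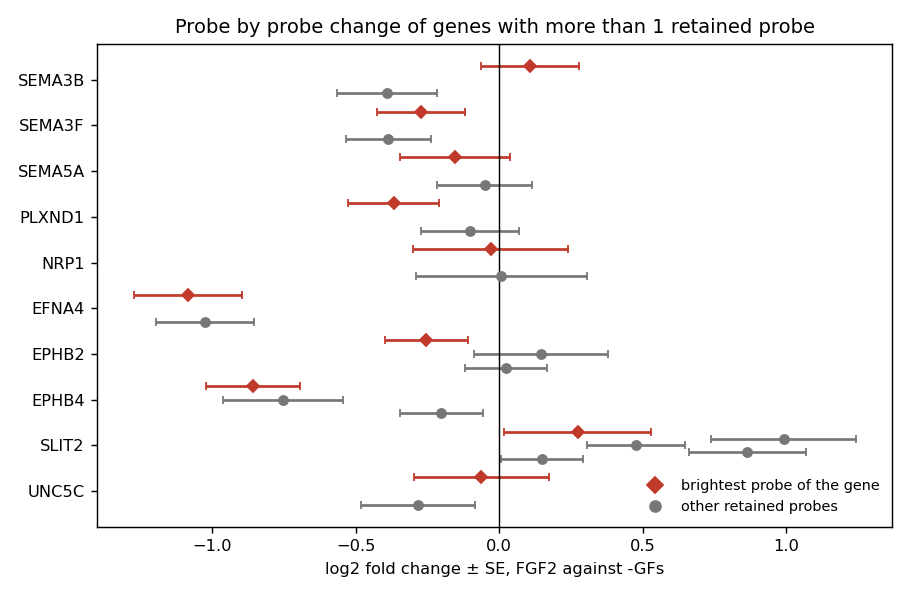
Log2 fold change with FGF2 against -GFs for each retained probe of the 10 genes with more than 1 retained probe. Red diamonds are the brightest probe, which represents the gene, grey circles the other probes, and bars 1 standard error from the fit of every probe. EFNA4 probes agree at -1.08 and -1.03, while SLIT2 estimates range from 0.15 to 0.99. The SLIT2 probe at 0.15 was undetected on both -GFs arrays, and some other points also use undetected readings.

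NTN4, a netrin of basement membranes, was the only netrin that the rule found on the array. It was detected on both -GFs and both BMP4 arrays and on neither FGF2 array, with log2 levels of 7.70 and 7.87, 7.75 and 7.80, and 7.27 and 7.37 in that order. Its level with FGF2 is thus only a bound, at least 1.15-fold below -GFs. The adjusted p was 0.120 (limma) and 0.0163 with the replicate block. The netrin receptor UNC5C changed by -0.06 and did not pass the test.

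BMP4 changed none of the 25 members past the threshold, beside 0.00842% of all tested genes called, that is 1 gene. Log2 fold changes lay between -0.31 (EFNA4) and 0.31 (EPHB2), leaving aside SEMA7A, for which no rise can be stated since both -GFs arrays were undetected. In all, 10 estimates were above 0 and 15 below, with a median of -0.06, where that of all tested genes was 0.00. With limma, 0 members had an unadjusted p under 0.05, beside 1.81% of all tested genes, and with the replicate block the lowest adjusted p was 0.553. SEMA7A was detected on the second BMP4 array only. With 2 arrays a group, these values leave room for changes that the test could not show.

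The direct comparison of the factors gave the same semaphorins. FGF2 exceeded BMP4 by 1.26 on the log2 scale for SEMA7A (limma adjusted p = 0.0252) and by 1.12 for SEMA4B (limma adjusted p = 0.0255). These are 2 of 25 members, beside 2.03% of all tested genes. The SEMA7A value uses an undetected reading on BMP4 replicate 1, and its probe was retained only through the FGF2 arrays. No member was called lower, beside 1.04%, and the background either way was 3.07%. With the adjusted p alone, PLXNA2 was higher with FGF2 (0.95), and EFNA1 (-0.84), EFNA4 (-0.78), PLXND1 (-0.63) and EPHB2 (-0.57) were lower, in all 7 members beside 9.06%. With the replicate block 10 members passed, beside 34.1% of all tested genes, and EPHB4, NTN4 and SEMA3F were added, all lower with FGF2. Without and with the block, the adjusted p (limma) was 0.105 and 0.00723 for EPHB4 (-0.57), 0.143 and 0.0197 for NTN4 (undetected with FGF2), and 0.205 and 0.0447 for SEMA3F (-0.39). This comparison and the one with -GFs share the FGF2 arrays.

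PLXND1 and EPHB2 are the members for which, without the block, only the comparison of the factors passed. With the block PLXND1 also passed with FGF2 against -GFs, and SEMA3F passed only between the factors. PLXND1 had log2 levels of 12.09 and 12.35 in -GFs, 11.88 and 11.82 with FGF2, and 12.52 and 12.44 with BMP4. EPHB2 had 10.18 and 10.11 in -GFs, 9.83 and 9.94 with FGF2, and 10.42 and 10.49 with BMP4. In both genes the -GFs arrays lay between those of the factors with no overlap. PLXND1 changed by -0.37 with FGF2 and by 0.26 with BMP4, and EPHB2 by -0.25 and 0.31. None of these 4 changes against -GFs passed the adjusted p without the block. These values are from the brightest probes. In the fit of single probes, the second PLXND1 probe gave -0.46 between the factors (limma adjusted p = 0.193). On that probe the FGF2 and -GFs arrays overlapped. The other retained EPHB2 probes gave 0.43 and -0.32 (limma adjusted p = 0.358 and 0.275). The first was undetected on BMP4 replicate 2. The second was undetected on both FGF2 arrays and was retained only through the BMP4 arrays. The difference in sign between the EPHB2 probes thus uses undetected readings.

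The arrays of a group differed in a direction that recurred for some members. In all 3 groups replicate 1 was higher for 8 members, EFNA5, NRP1, ROBO1, SEMA3A, SEMA3F, SEMA4A, SLIT3 and UNC5C, and the reading of replicate 2 was higher for NTN4 and SEMA7A. Neither FGF2 array detected NTN4 and neither -GFs array SEMA7A, so their levels there have no order. Over all tested genes, replicate 1 was higher in all 3 groups for 25.1% and replicate 2 for 28.2%. The largest such difference was that of SEMA3A in -GFs, -1.03 on the log2 scale. None of the 8 passed the test with FGF2 or BMP4, and SEMA7A rose with FGF2 within each replicate.

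**Figure D4:**
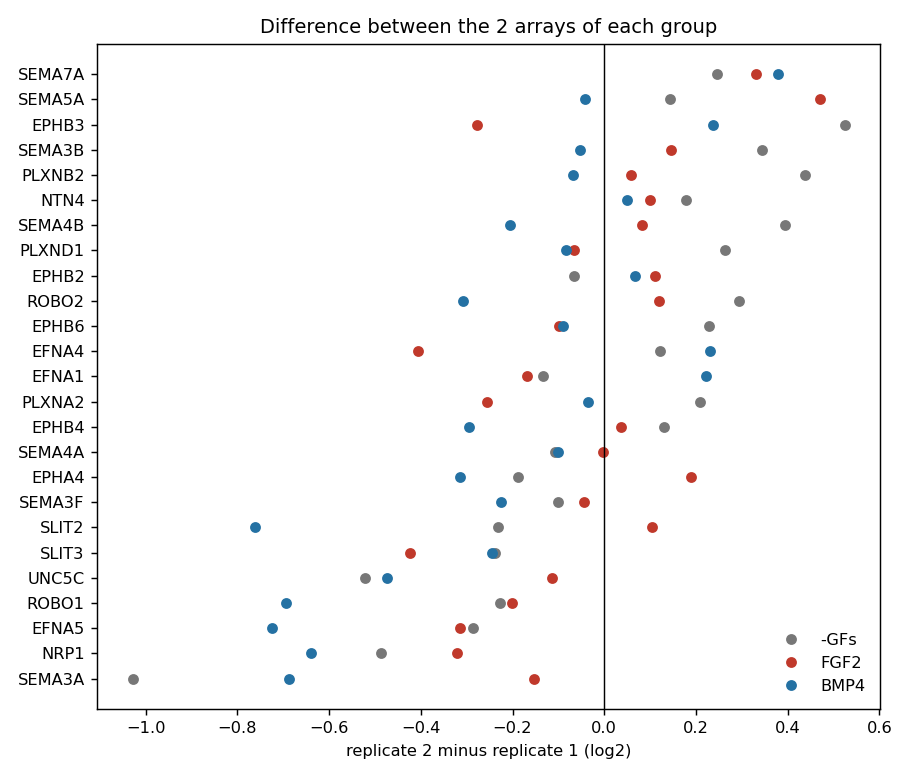
Replicate 2 minus replicate 1 in log2 units for each tested axon guidance gene, with 1 point per group (grey -GFs, red FGF2, blue BMP4), ordered by the sum of the differences. Points of the 8 genes with replicate 1 higher in all groups lie left of 0, down to -1.03 for SEMA3A, and those of NTN4 and SEMA7A right of 0. The FGF2 point of NTN4 and the -GFs point of SEMA7A rest on undetected arrays.

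Genes that act with or below these receptors were read from the same fit. Of 23 other guidance cues and receptors, 7 were tested and none was called with FGF2. GPC1, a cell surface heparan sulphate proteoglycan, passed the adjusted p at a log2 fold change of 0.54 (limma adjusted p = 0.0846). This is 1 of 7, beside 11.8% of all tested genes. With the replicate block ITGB1 (0.61), RGMA (-0.68) and CXCL12 (-0.43) passed too, at an adjusted p of 0.00518, 0.00121 and 0.0267 (limma). That makes 4 of 7 with the block, beside 37.7% of all tested genes. Of 55 signalling genes, 41 were tested and 2 were called with FGF2, which is 4.88% beside 3.53% of all tested genes called either way. Both were higher with FGF2, as were 2.28% of all tested genes. MICAL2, a monooxygenase that oxidises actin, rose by an estimate of 1.76 (limma adjusted p = 0.0107). No MICAL2 probe was detected on more than 4 arrays. Its mean log2 level was 7.60 in -GFs, where the lowest detected levels were 7.56 and 7.62, so the size of its rise uses readings near the detection limit. LIMK1, the kinase that phosphorylates cofilin, rose by 1.32 (limma adjusted p = 0.0202). RND3, a small GTPase, and TRIO, an exchange factor of RAC1, passed the adjusted p at 0.69 and 0.64, and the tyrosine kinase FES was lower at -0.48, in all 5 of 41 beside 11.8% of all tested genes. With the replicate block 20 of the 41 passed, beside 37.7%. Median log2 fold changes with FGF2 were 0.08 for the other cues and receptors and 0.12 for the signalling genes, beside -0.02 over all tested genes. With BMP4 no gene of either list was called, and with the block TIAM1, an activator of RAC1, passed the adjusted p at 0.71 (limma adjusted p = 0.0495).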

How the data were processed

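RNA of PA6 monolayers from 3 groups (-GFs, FGF2 and BMP4, 2 biological replicates each, grouped by the labels) was hybridised to 6 Illumina MouseWG-6 v2.0 arrays. The authors deposited intensities, the mean bead brightness per probe on a linear scale without normalization between arrays, and beside each a detection p-value. The submitters' processing notes name GenomeStudio 2011.01. Not used were 9 unheaded columns of that table and 6 leftover lines. The labels give 10 ng/ml of BMP4, and the methods another dose for co-cultures.

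Following the methods, cubic spline normalization was re-implemented (452 quantiles per array) and values were converted to log2. A probe was retained if its detection p was under 0.05 on each of the 2 arrays of some group, and the probe with the largest mean represented a gene. limma 3.58.1 in R 4.3.3 was fitted on all 6 arrays, with 3 residual degrees of freedom (2 with the replicate as a block), with Benjamini-Hochberg adjustment over all genes. An adjusted p is from this fit unless the block, single probes or an omitted array are named beside it. With 2 arrays a group the smallest two-sided p of an exact permutation test is 0.333, so none was used. Where neither array of a group detected a probe, its level there is a bound, set by the lowest detected signal per array. The number of arrays limits the precision. The fit was tested on simulated data.

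By the labels, each biological replicate supplied a well to every group. Deviations from the group means of same-numbered arrays correlated at 0.602 (-GFs and FGF2), 0.741 (-GFs and BMP4) and 0.579 (FGF2 and BMP4). Where the block changes a call of a member, its value or its count is given.

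The members, marker lists and pathway lists were chosen with earlier results of these data known. Every member with a retained probe is named. Values on each array are given for members called in a comparison or changed by over 0.5 on the log2 scale against -GFs, and for EPHB2, PLXND1, SEMA3A, SLIT2 and NTN4, which were added after their values were seen. Promoter windows are from RefSeq (GRCm38.p6), and 23 of 25 tested members matched one. Alternatives were other normalizations, detection filters, probe choices and fits, the replicate block, the absence of a fold threshold and the omission of each array. Some were added after seeing the data: background correction by neqc or scaling to a common median, each with the block.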

Additional observations from a re-analysis of the deposited data

How the results depend on the processing

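Called members are counted here against 2 higher (SEMA7A, SEMA4B) and 1 lower (EFNA4) with FGF2 against -GFs, 0 with BMP4 against -GFs, and 2 higher and 0 lower with FGF2 against BMP4. The replicate block in the fit called the same 3 and 2 genes, and BMP4 stayed at 0 under every alternative run. With neqc background correction 4 fell with FGF2 (EFNA1, EFNA4, EPHB6 and NTN4), 3 were lower than with BMP4 and PLXNA2 joined the genes higher in both (1.02 and 1.11), and with neqc and the replicate block 5 and 3. Against -GFs neqc moved the log2 fold changes with FGF2 of SEMA7A to 3.13, EFNA1 to -1.67, EFNA4 to -1.81 and EPHB3 to -1.09. Scaling to a common median left 1 higher with FGF2 (SEMA7A), and also with the block, and over all genes turned the split of 271 higher and 148 lower into 208 and 209. Probes detected on all 6 arrays, which leave out SEMA7A, gave 1 higher in each comparison of FGF2. An unpaired t-test per gene with Benjamini-Hochberg adjustment called 0 members in any comparison, and at an unadjusted p under 0.05 with the fold threshold the main counts. Without a fold threshold 3 fell with FGF2 and 4 were lower than with BMP4, and with the replicate block and no fold threshold 8 and 7.

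Without one array at a time, 0 to 2 rose and 0 to 1 fell with FGF2, and 0 to 2 were higher than with BMP4. Without FGF2 replicate 2 none was called, and without FGF2 replicate 1 SEMA7A and EFNA4 remained against -GFs and none against BMP4. SEMA4B was lost without -GFs replicate 1, EFNA4 without -GFs replicate 2, and against BMP4 SEMA7A without BMP4 replicate 1 and SEMA4B without BMP4 replicate 2. Signs turned for a few changes near 0 with BMP4. EFNA1 went from 0.07 to -0.0030 with median scaling (with or without the block). Leaving out one array, it ranged from -0.041 to 0.18, turning without BMP4 replicate 2. EPHB3 ranged from -0.41 to 0.11, PLXNA2 from -0.18 to 0.032 and SEMA4B from -0.30 to 0.091, all turning without -GFs replicate 2. Levels near the detection limit, such as EPHB6 and NTN4, set how far these arrays reach.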

Other observations

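Some probes filed under older names belong to genes of these families but do not match the symbols. A probe under a clone name that RefSeq lists as a synonym of PLXND1 was detected on all 6 arrays, with raw intensities of 1796.2 and 2005.2 in -GFs, 1514.1 and 1575.1 with FGF2, and 2115.7 and 2440.3 with BMP4. Its raw values fell in the order FGF2, -GFs, BMP4 with no overlap, as did those of the brightest PLXND1 probe after normalization. On the second retained PLXND1 probe FGF2 (log2 8.39 and 8.48) and -GFs (8.42 and 8.66) overlapped. The share of all genes with such an order was not analysed here. One under a clone name of EPHB1 was detected on 2 arrays. Those under older names of NRP2, PLXNA2, UNC5C and EPHA5 were detected on none.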
